A study of Glycine max with 8 samples.

Results

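Soybean chromosomes 4 and 6 held 1754 of the 15872 regions bound in both biological replicates by the protein that GLYMA.08G357600 encodes, or 11.1% of them. The members were chosen by place alone: peaks of the 2 deposited lists that lay on either chromosome and overlapped by at least 1 bp were joined into a shared region. Chromosome 4 gave 754 members and chromosome 6 gave 1000. The other 18 chromosomes held 14038 shared regions and the scaffolds 80.

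The data came from chromatin immunoprecipitation and sequencing (ChIP-seq) of embryos of Glycine max cultivar Williams 82, grown in a greenhouse and dissected at mid-maturation, as judged by seed weight. The ChIP group comprised 4 libraries, made with an antibody against a peptide of this protein, from 2 biological replicates sequenced on 2 lanes each. The Input group comprised 4 libraries of the same layout, made from nuclear extract set aside with no antibody. All libraries came from formaldehyde-crosslinked tissue, and no genotype or treatment differed between the groups.

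Mid-maturation is the stage at which a seed fills with storage protein and oil. A transcription factor is usually found in ChIP-seq at short stretches of open chromatin beside genes. Soybean chromosomes carry most of their genes toward the ends, whereas the wide tracts around the centromeres are rich in repeats and poor in genes. Genes and sequences at the regions were not analysed here, since the genome build of the coordinates was not given in the sources used. Places are described along each chromosome, counted from its first base to the end of the last peak in either list, 52.3 Mb for chromosome 4 and 51.3 Mb for chromosome 6.

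Replicate 1 had 21196 peaks and replicate 2 had 18385 over the genome. The genome-wide background was 3.91 and 2.74 fragments, 1.41 times as high in replicate 1. Sequencing depth itself was not measured here. Pairs of values are given for replicate 1 and then replicate 2. Fold enrichment, the summit signal over the local background, is the authors' own value for each peak. Summit pileups (fragments stacked at the summit) and backgrounds were recovered from the fold and p of each peak. Intervals on percentages are Wilson 95% intervals, which cover counting error only. Regions on a chromosome are not replicates of each other, so the chromosomes are compared by value and by rank, with no test.

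Most replicate 1 peaks of either chromosome had a partner in the other list. On chromosome 4, 75.3% of the 1006 replicate 1 peaks (interval 72.6% to 77.9%) and 86.2% of the 882 replicate 2 peaks (83.7% to 88.3%) overlapped the other list. On chromosome 6, 1003 of 1337 replicate 1 peaks did so (interval 72.6% to 77.3%), and 87.4% of 1153 replicate 2 peaks (85.4% to 89.2%). Over the other 18 chromosomes the shares averaged 75.3% ± 1.34 and 87.0% ± 1.2 (SD, n = 18 chromosomes). Nearly all members joined 1 peak of each list, and only 8 on chromosome 4 and 11 on chromosome 6 joined more. The lists placed the summit of a region a median of 29.5 bp apart on chromosome 4 and 29 bp apart on chromosome 6.

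The 2 chromosomes are of nearly the same length but differed in how densely they were bound. Chromosome 4 had 14.4 shared regions per Mb, the 14th highest density of 20, and chromosome 6 had 19.5 per Mb, the 5th highest. The mean of the other 18 was 16.9 ± 3.70 per Mb (SD, n = 18 chromosomes). Chromosome 6 had the second largest number of shared regions of any chromosome, and chromosome 4 stood 10th. The order of the 2 was the same in each list alone, with 19.2 peaks per Mb on chromosome 4 and 26.1 on chromosome 6 in replicate 1, and 16.9 and 22.5 in replicate 2.

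Chromosome 4 was bound at both ends and almost bare between them. The first 20% of its length held 379 regions (50.3%), the last 20% held 276 (36.6%), and the inner 60% held the other 99 (13.1%). The share in the outer parts together was 86.9% (interval 84.3% to 89.1%), the highest of the 20 chromosomes. Values of the other 18 ranged from 33.4% to 78.4% with a mean of 68.9% ± 10.6 (SD, n = 18 chromosomes). Counted over all peaks of a list, matched or not, the share was 85.9% in replicate 1 and 86.5% in replicate 2. The same layout is seen in cumulative counts. On chromosome 4, 50% of regions lay before position 9897538, at 18.9% of the length, and 75% lay before position 46560682, at 89.0%.

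Chromosome 6 was bound mainly along 1 side. Its first 20% held 470 regions (47.0%), the last 20% held 166 (16.6%), and the inner 60% held 364 (36.4%). The outer parts together held 63.6% (interval 60.6% to 66.5%), the 16th highest of 20. The count in its first 20% was 2.83 times that in its last 20%, against 1.37 times on chromosome 4. Chromosome 15 was the one chromosome with a more uneven ratio in that direction, 3.60. Of the chromosome 6 regions 78.4% lay in the first 50% of the length, against 57.4% on chromosome 4. Regions stayed frequent well inward, so that 75% of them lay before position 19879489, at 38.7% of the length.

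**Figure D1:**
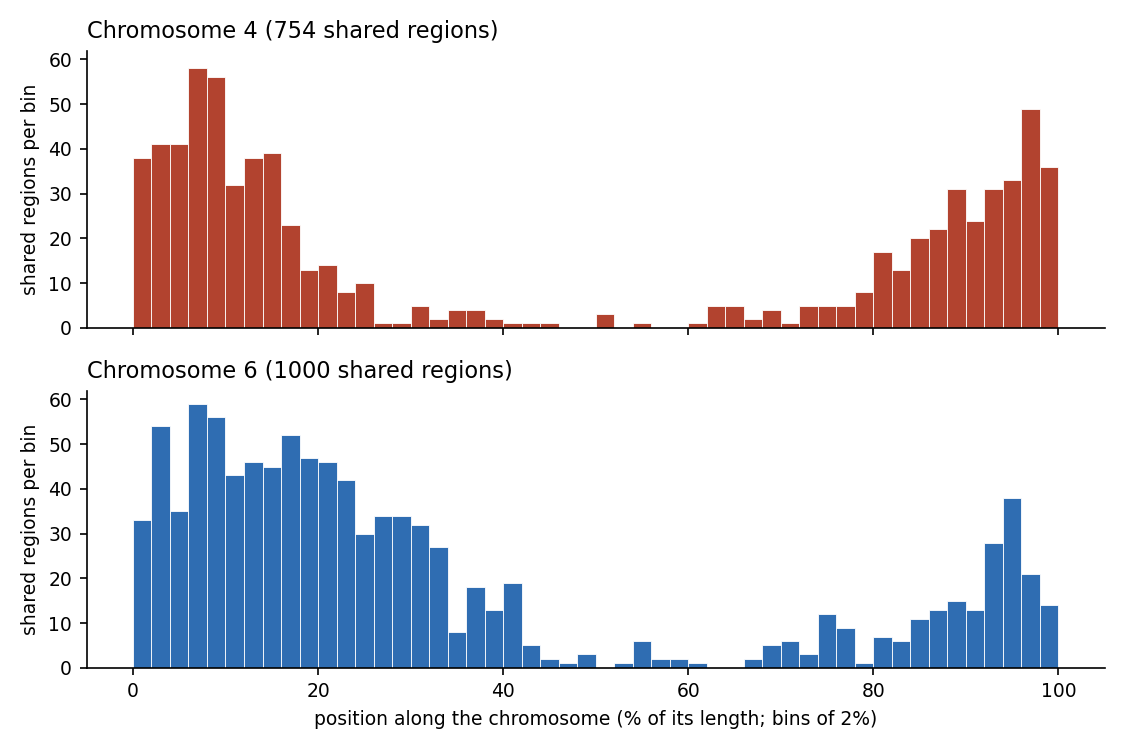
Number of shared regions in bins of 2% of the chromosome length, for chromosome 4 (upper) and chromosome 6 (lower). Chromosome 4 falls away from both ends toward a broad, nearly empty middle, whereas chromosome 6 keeps high counts well inward on 1 side, with 78.4% of its regions in the first 50% of the length, and has a smaller group at the far end.

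Counts in steps of 10% of the length trace where binding thinned out. From start to end of chromosome 4 they ran 234, 145, 34, 17, 3, 4, 17, 24, 103 and 173. On chromosome 6 they ran 237, 233, 186, 98, 30, 11, 8, 31, 52 and 114. The first 10% of the chromosomes were thus nearly equal in count, and the gap between them opened from there inward. Both lists showed it on their own. Between 20% and 30% of the length, chromosome 4 had 47 replicate 1 peaks and 38 replicate 2 peaks, and chromosome 6 had 246 and 216.

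The thin part was also longer on chromosome 4 when 1 Mb bins were counted. From 12000001 to 42000000 no bin held 10 or more regions, a run of 30 bins with 84 regions over 57.4% of the length. It was the longest such run of any chromosome. On chromosome 6 the longest run was 16 bins, from 22000001 to 38000000, with 36 regions over 31.2% of the length. The mean of the other 18 was 16.7 ± 5.31 bins (SD, n = 18 chromosomes), with a longest run of 27. The middle 20% of chromosome 4 held only 7 regions (0.928%), the lowest count and share of the 20, against 41 (4.10%) on chromosome 6. Which parts of the chromosomes could be aligned, and how reads from repeats were treated, was not tested.

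**Figure D2:**
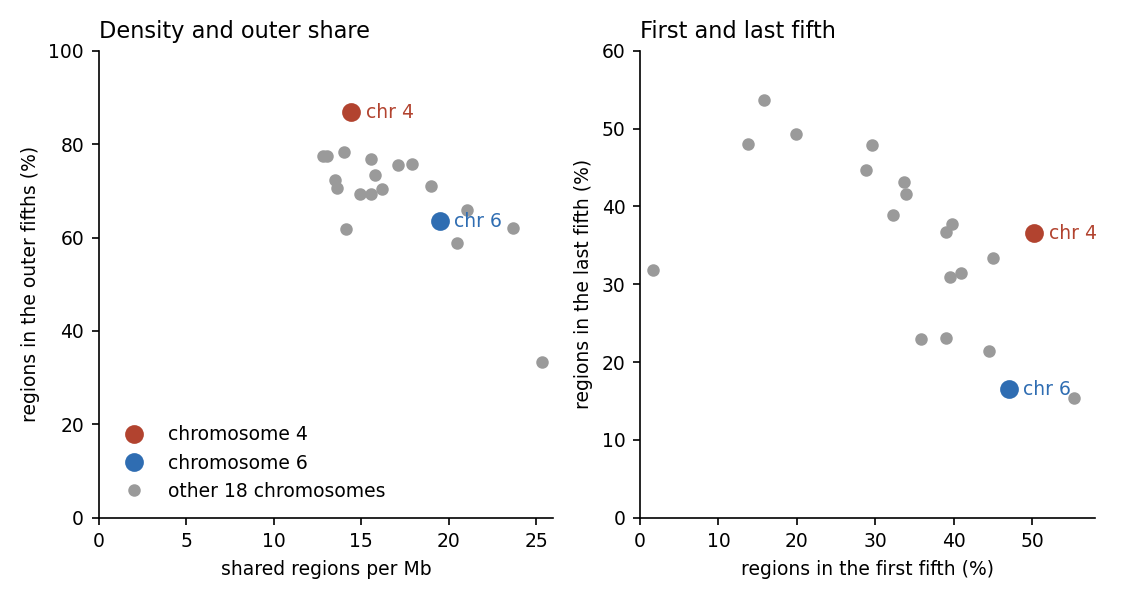
Each point is 1 chromosome, with chromosome 4 in red, chromosome 6 in blue and the other 18 in grey: left, shared regions per Mb against the percentage of regions in the first and last 20% of the length; right, the percentage in the first 20% against that in the last 20%. Chromosome 4 stands at the top of the left panel with 86.9%, and chromosome 6 lies low in the right panel with 47.0% against 16.6%.

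The longest stretch with no peak in either list on any of the 20 chromosomes lay on chromosome 6, in the inner part of its sparse side. From 30790182 to 34423834, a distance of 3.63 Mb, no peak was listed. It was 3.14 times as long as the next stretch of that chromosome, the highest such ratio of the 20. The shared region at its left border, from 30789294 to 30790181, had folds of 13.4 and 9.47 and summit pileups of 74 and 59 fragments. The one at its right border, from 34423835 to 34424349, had folds of 15.7 and 15.8 and pileups of 76 and 73. The folds at both borders were thus above the chromosome's median in each list. Each list alone gave the same length, 3.63 Mb.

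The other long stretches of chromosome 6 were far shorter. Next came 42172393 to 43328249 (1.16 Mb) and 40344321 to 41374445 (1.03 Mb), both on the thinly bound side. The 1.16 Mb stretch began at a region from 42172014 to 42172392 (folds of 5.16 and 4.81) and ended at a replicate 1 peak with no partner, from 43328250 to 43328474 (fold 3.86). The 1.03 Mb stretch lay between a region from 40343998 to 40344320 (4.65 and 6.94) and one from 41374446 to 41375080 (9.77 and 7.86). Except for the last, these border regions were below the chromosome's median fold in both lists. A further pair of stretches, 25627926 to 26602121 (0.974 Mb) and 26602371 to 27528448 (0.926 Mb), was separated by a single replicate 1 peak from 26602122 to 26602370 with a fold of 4.10. Without that unmatched peak they form a stretch of 1.90 Mb with no shared region.

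Chromosome 4 had no stretch as long but many of middling length. Its 3 longest peak-free stretches were nearly equal: 24911318 to 26537950 (1.63 Mb), 27130089 to 28753803 (1.62 Mb) and 30253131 to 31864050 (1.61 Mb). Stretches of at least 0.5 Mb numbered 19 on chromosome 4 and summed to 18.1 Mb, or 34.6% of its length, the highest sum and share of the 20. Chromosome 6 had 13, which summed to 12.8 Mb or 24.9% of its length. On the other 18 chromosomes the mean was 11.1 ± 3.67 such stretches and 22.5% ± 4.92 of the length (SD, n = 18 chromosomes).

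Peaks found in 1 list only cut the empty parts of chromosome 4 into shorter pieces. The longest stretch is bordered by unmatched peaks on both sides, from 24910667 to 24911317 in replicate 1 (fold 2.88) and from 26537951 to 26538381 in replicate 2 (fold 4.90). When only shared regions count, the longest became 28754292 to 31864050, over 3.11 Mb, nearly as long as that of chromosome 6. Its right border was the region from 31864051 to 31864754 (folds of 5.86 and 6.68). With replicate 1 alone the longest was 2.52 Mb and with replicate 2 alone 2.31 Mb. By shared regions chromosome 6 ranked 3rd of 20 and chromosome 4 ranked 4th, after 4.62 Mb on chromosome 13 and 3.88 Mb on chromosome 2.

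**Figure D3:**
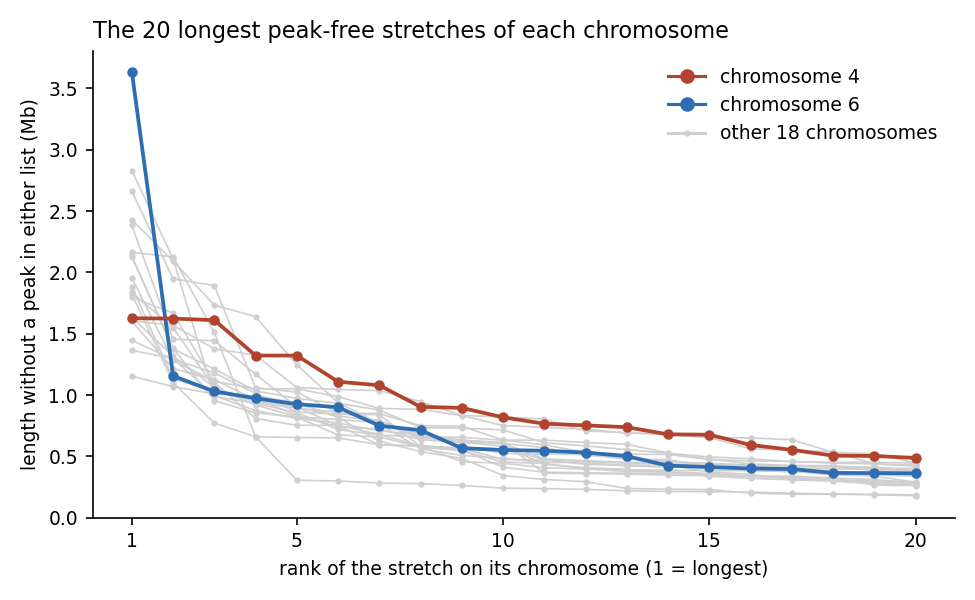
Length of the longest peak-free stretches of each chromosome, ranked from the longest, with chromosome 4 in red, chromosome 6 in blue and the other 18 in grey. Chromosome 6 has the longest of all (3.63 Mb) and then drops to 1.16 Mb, whereas chromosome 4 starts at 1.63 Mb and declines slowly, with 19 stretches of at least 0.5 Mb.

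At the other extreme stood short, crowded segments near the ends. The bin from 4000001 to 5000000 on chromosome 4 held 63 shared regions, the most of any 1 Mb bin of the 956 on the chromosomes. Matched or not, 75 replicate 1 peaks and 69 replicate 2 peaks lay in it. Its regions covered 3.19% of the bin, had a median summit spacing of 8.80 kb, and included 12 neighbouring summits within 2 kb. The strongest region in it, from 4416723 to 4417679, had folds of 48.5 and 57.7. The next bins of chromosome 4 held 47 regions (from 50000001) and 46 regions (from 3000001). The strongest region in the bin from 50000001, from 50651708 to 50652519, had folds of 29.2 and 27.1. In the bin from 3000001 it was 3404109 to 3404929, with folds of 40.8 and 43.6.

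Chromosome 6 had more dense bins, and they lay close together. Its densest bins held 58 regions (from 3000001), 56 (from 8000001) and 54 (from 4000001), the 4th, 6th and 10th highest counts of all bins. All peaks in these bins, matched or not, numbered 83, 78 and 61 in replicate 1 and 72, 62 and 57 in replicate 2. The strongest regions in them ran from 3179923 to 3180807 (folds of 32.0 and 39.8), from 8415675 to 8416964 (36.1 and 47.3) and from 4498109 to 4498681 (33.8 and 46.7). Bins with at least 40 regions numbered 11 on chromosome 6, all between 1000001 and 14000000, and held 51.8% of its regions. Chromosome 4 had 5 such bins with 31.3% of its regions, and the other 18 chromosomes had 88 with 28.6%.

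Which of the 2 chromosomes held the denser bin depended on where bins began, on their size and on which peaks were counted. With bins moved by 0.5 Mb the highest counts were 56 on chromosome 4 and 63 on chromosome 6. With bins of 0.5 Mb they were 64 and 72 per Mb, and with bins of 2 Mb 50 and 50.5 per Mb. Counting all peaks of a list gave 75 and 83 in replicate 1 and 69 and 72 in replicate 2. Peaks with a −log10 q of at least 10 gave 42 on both chromosomes. By median fold, regions in dense bins were about as enriched as others. On chromosome 4 the medians were 7.23 and 7.55 in dense bins against 7.03 and 7.20 elsewhere. On chromosome 6 these medians were 7.13 and 7.55 in dense bins against 6.83 and 7.47 elsewhere. A fold of at least 10 in both lists was reached by 28.0% of regions in dense bins of chromosome 4 against 22.6% elsewhere. On chromosome 6 these shares were 26.8% and 25.1%, and on the other 18 chromosomes 23.7% and 24.4%.

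Chromosome 6 had more close neighbours and short chains of regions than chromosome 4 in number, but it also had more regions. As a share of neighbours, the close ones differed little. Neighbouring summits within 2 kb of each other numbered 75 on chromosome 4 (9.96% of neighbours) and 107 on chromosome 6 (10.7%), against a mean of 9.06% ± 1.06 over the other 18 (SD, n = 18 chromosomes). These counts depended strongly on which peaks entered. They were 131 among 1006 peaks and 189 among 1337 in replicate 1 alone, and 109 among 882 and 140 among 1153 in replicate 2 alone. Peaks with a −log10 q of at least 10 gave 38 among 505 shared regions and 52 among 684. Each count on chromosome 6 thus came from a larger number of peaks or regions. Chains of 4 or more regions with steps of at most 5 kb numbered 7 on chromosome 4, the 10th highest of 20, and 14 on chromosome 6, the second highest, against a mean of 6.61 ± 4.19 over the other 18 (SD, n = 18 chromosomes). The longest on chromosome 4 held 6 regions from 3584639 to 3599603, over 15.0 kb, with folds of 3.61 to 9.56 in replicate 1 and 3.54 to 10.9 in replicate 2. Chromosome 6 had 5 chains of 5 regions. One of them, from 1600931 to 1609623, ended in 1 of the strongest regions of the chromosome and spanned folds of 4.93 to 41.0 and 4.67 to 43.3. A different one, from 21477626 to 21486116, lay at 41.9% of the length, where regions were already scarce, with folds of 3.14 to 9.83 and 3.63 to 14.5.

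Enrichment differed far less between the 2 chromosomes than layout did. Median folds were 7.12 and 7.23 on chromosome 4 and 7.01 and 7.48 on chromosome 6. Means over the other 18 chromosomes were 6.94 ± 0.158 in replicate 1 and 7.26 ± 0.211 in replicate 2 (SD over chromosomes, n = 18). The order of chromosomes 4 and 6 was opposite in the 2 lists, so no difference in median fold held in both replicates. Median summit pileups were 39 and 30 fragments on chromosome 4 and 41 and 32 on chromosome 6. Across members the folds of the 2 lists lay within 2 times of each other at 98.3% of regions. Replicate 2 gave the higher fold at 58.9%. Over all shared regions of the genome these shares were nearly the same, 98.1% and 59.0%.

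A fold of at least 10 in both lists was reached by 183 regions of chromosome 4 (24.3%, interval 21.3% to 27.5%) and 260 of chromosome 6 (26.0%, interval 23.4% to 28.8%), where 24.4% of all shared regions reached it. A fold of at least 20 in both lists was reached by 42 regions of chromosome 4 (5.57%, interval 4.15% to 7.44%) and 81 of chromosome 6 (8.10%, interval 6.56% to 9.96%), where 7.14% of all shared regions reached it. For the higher limit chromosome 4 ranked 18th of 20 and chromosome 6 ranked 3rd. Their intervals overlap each other, which does not decide whether the shares differ, and the difference was not tested.

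**Figure D4:**
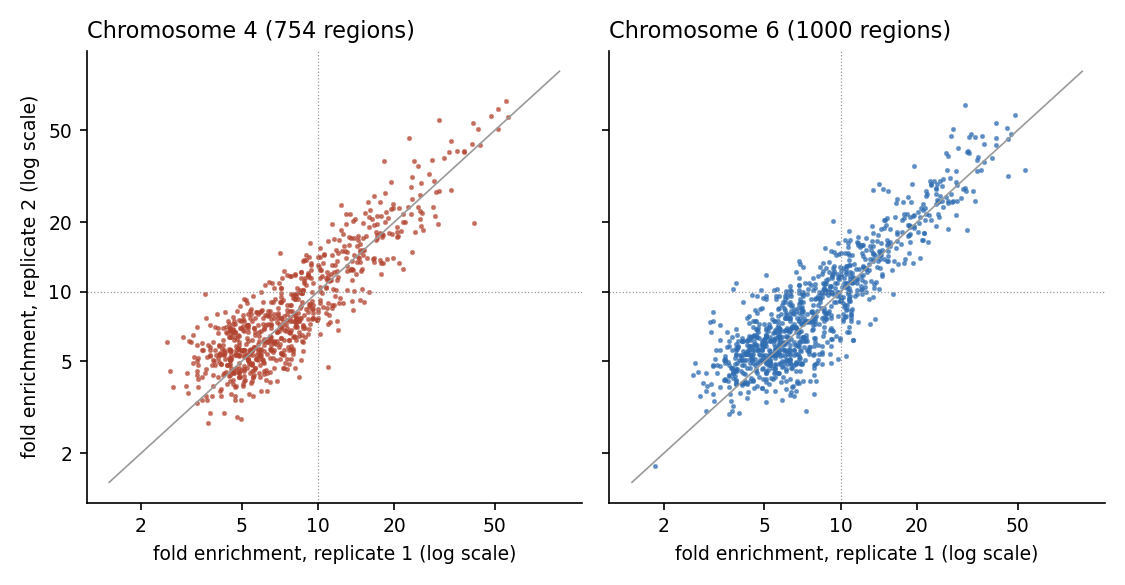
Fold enrichment of each shared region in replicate 1 (x axis, log scale) and replicate 2 (y axis, log scale) for chromosome 4 (left) and chromosome 6 (right), with the line of equal folds and dotted lines at a fold of 10. The points lie along the line on both chromosomes, and 183 and 260 of them fall beyond 10 in both lists.

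The 10 strongest members of chromosome 4 lay toward its 2 sides, with 3 of them in its crowded start. None lay between 24.0% and 80.1% of the length. First in mean rank over both lists came the region from 12568336 to 12569149, at 24.0% of the length, with folds of 55.4 and 67.0 and pileups of 271 and 250. It ranked 17th of all shared regions, and its summits in the 2 lists were 2 bp apart. Its nearest neighbouring summit was 39.0 kb away, in the run of sparse bins. Next came 778186 to 779481, with folds of 56.3 and 57.2 and the tallest pileups of the chromosome, 328 and 291. A group of 3 stood within 0.989 Mb, where the last 20% of the length begins: 42112340 to 42113279 (51.4 and 62.0), 42891633 to 42892744 (51.4 and 50.7) and 41903948 to 41904623 (43.0 and 50.9). The region from 4416723 to 4417679 in the densest bin ranked among them. The set of 10 was completed by 49044184 to 49045151 (41.0 and 53.9), 45614867 to 45615579 (43.6 and 43.3), 3404109 to 3404929 (40.8 and 43.6) and 46559670 to 46560938 (37.7 and 40.6). Of the 10, 3 lay in the first 20%, 6 in the last 20% and 1 between, although the first 20% held more regions than the last 20%.

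The strongest members of chromosome 6 included several well inside the chromosome. First came 12891176 to 12892309, at 25.1% of the length, with folds of 48.6 and 58.5 and pileups of 258 and 231, the 57th of all shared regions. Next were 15277498 to 15278184 (45.3 and 51.3), 49027822 to 49028535 (47.3 and 48.4) and 47898689 to 47899718 (41.2 and 53.7). The 5th, from 34930283 to 34930936 (45.7 and 45.9; pileups of 233 and 171), was the strongest in the run of sparse bins and lay beyond the right border of the 3.63 Mb stretch. Its neighbouring summits were 435 kb before and 415 kb after it. Regions from 19160322 to 19161089 (41.0 and 46.2), 1608766 to 1609623 (41.0 and 43.3), 8415675 to 8416964 (36.1 and 47.3) and 17430420 to 17431204 (36.9 and 43.7) were also among the 10. So was the first region of the chromosome, 16324 to 17033, whose folds of 30.9 and 64.4 stood far apart. Its pileups were 266 and 240 fragments, and its background was 7.64 fragments in replicate 1 and 2.74 in replicate 2. Of the 10, 3 lay in the first 20%, 2 in the last 20% and 5 between. These parts held 47.0%, 16.6% and 36.4% of all regions of the chromosome. A fold of at least 10 in both lists was reached by 29.4%, 24.1% and 22.5% of regions in them, lowest in the inner part. This split of 10 regions is likewise not read as a pattern.

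The middle 20% of chromosome 4 held few regions, of which most were strong. Its 7 regions, from 21673489 to 28754291, had neighbouring summits at least 229.9 kb away, and 5 of them had a fold of at least 10 in both lists (71.4%, interval 35.9% to 91.8%). The strongest, from 22492916 to 22493547, had folds of 15.7 and 24.6 and pileups of 98 and 91. The region from 26899684 to 26900303 had folds of 14.2 and 12, and 26554009 to 26554805 had 13.0 and 10.1. The second longest stretch is bordered by 27129706 to 27130088 (12.8 and 15.0) on its left and 28753804 to 28754291 (12.9 and 14.1) on its right. The remaining 2, from 21673489 to 21673895 (4.89 and 5.88) and from 23749912 to 23750424 (4.63 and 6.93), were below the chromosome's median fold in both lists.

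This share, looked at after the values were seen, rests on 7 regions and was lower in wider windows, 44.0% in the middle 30% and 39.0% in the middle 40% of chromosome 4. In the middle 20% of chromosome 6 it was 17.1% (7 of 41, interval 8.53% to 31.3%). Keeping only peaks with a −log10 q of at least 10, which leaves out weak peaks, gave 83.3% on chromosome 4 and 30.4% on chromosome 6. Shares on the other 18 chromosomes ranged from 9.09% to 35.3%, and their middle regions together gave 24.8% (221 of 892). The strongest middle region of chromosome 6, from 20703928 to 20704764, had folds of 39.5 and 37.9, followed by 27942509 to 27943652 with 23.4 and 30.2. Next were 21870068 to 21870839 (24.2 and 21.8), 23971446 to 23972105 (22.4 and 21.5) and 22718775 to 22719345 (20.9 and 16.7).

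In wide zones of the chromosomes the median folds were close. On chromosome 4, median folds were 6.95 and 7.21 in the first 20%, 6.99 and 6.98 in the inner 60%, and 7.30 and 7.44 in the last 20%. On chromosome 6, they were 7.30 and 7.74 in the first 20%, 6.83 and 6.98 in the inner 60%, and 6.83 and 7.69 in the last 20%. Steps of 10% varied more on chromosome 4, where few regions lay in the inner steps. The medians were 5.67 and 6.30 between 30% and 40% of the length (17 regions), 13.0 and 13.0 between 50% and 60% (4 regions), and 11.1 and 11.9 between 60% and 70% (17 regions, 9 of them with a fold of at least 10 in both lists). A fold of at least 10 in both lists was reached by 29.4% of regions in the first 20% of chromosome 6 (138 of 470, interval 25.4% to 33.6%) and by 22.5% in its inner part (82 of 364, interval 18.5% to 27.1%). These intervals overlap.

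**Figure D5:**
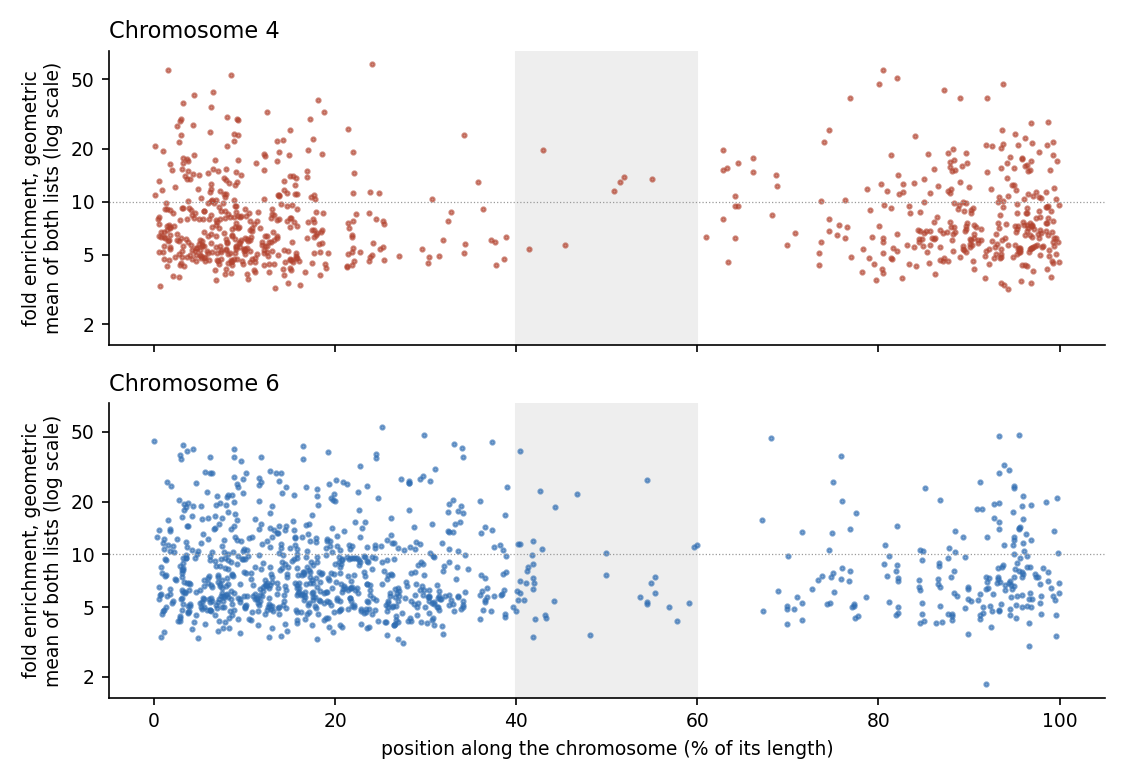
Fold enrichment of each shared region (geometric mean of both lists, log scale) against its position in percent of the chromosome length, for chromosome 4 (upper) and chromosome 6 (lower). The middle 20% is shaded and the dotted line marks a fold of 10; chromosome 4 has 7 points in the shaded part and chromosome 6 has 41.

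Members were narrow, with a median width of 458 bp on chromosome 4 (range 239 to 1577 bp) and 468 bp on chromosome 6 (range 228 to 1590 bp). More than 1000 bp was reached by 15 regions of chromosome 4 (1.99%) and 28 of chromosome 6 (2.80%). The mean share over the other 18 was 2.38% ± 0.568 (SD, n = 18 chromosomes). The widest on chromosome 4, from 2300788 to 2302364, joined 2 replicate 1 peaks and 1 replicate 2 peak and had folds of 30.0 and 55.3. The widest on chromosome 6, from 968373 to 969962, had folds of 24.1 and 25.1. Shared regions covered 0.718% of chromosome 4 and 0.990% of chromosome 6.

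The local background lay at the genome-wide level of the list at 25.2% and 26.1% of chromosome 4 regions. These shares were 24.8% and 26.3% on chromosome 6 and averaged 26.8% and 27.0% over the other 18 chromosomes. One member had a far higher background, on chromosome 6 from 47117926 to 47118603, with backgrounds of 133 and 121 fragments. Its pileups were 248 and 215 fragments, but its folds were 1.85 and 1.77, the lowest of the chromosome in both lists. Chromosome 4 had no region above 5 times the genome-wide background in both lists. Its highest was the first region of the chromosome, from 31280 to 31936, with backgrounds of 14.1 and 6.57 fragments and folds of 8.80 and 13.7. The last regions, from 52306130 to 52306568 on chromosome 4 (folds of 7.84 and 11.7) and from 51303175 to 51303586 on chromosome 6 (6.92 and 5.19), were of ordinary strength.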

How the data were processed

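Bowtie 0.12.7 and MACS2 are the tools named for the authors' processing, per the submitters' processing notes. Their settings, the release of MACS2 and the build of the genome were not given in the sources used here. Deposited by the authors was 1 peak list per ChIP biological replicate, and the labels name the same list for both lanes. Total reads per library were not used here, and p-values were not computed. The Input libraries have no values of their own here. Each deposited peak has a fold ratio over the local background, −log10 p and −log10 q values, a score (10 times −log10 q, cut to a whole number, in all but 3 peaks) and its start, end and summit, which are other positional values that the authors deposited.

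Summit pileup and background were recovered by solving the fold, (pileup + 1) / (background + 1), together with the Poisson p; pileups came out whole within 0.01 for 100% of peaks. Where a region joined several peaks of 1 list, the one of highest fold gave its values. Its summit is midway between those of the lists. Bins were counted from position 1. Regions were ranked by their mean percentile rank of fold. The regions named were the 10 highest, the widest, those at the 3 longest stretches, in the 3 densest bins and in the middle, the longest chains, and those of highest background. The members and measures were chosen with earlier results of these data known, and others named were picked after their values were seen. Steps were tested on simulated data. Python 3.11.15, pandas 2.3.3 and scipy 1.17.1 were used. RefSeq gene positions were not used, since the build of the peaks was not given.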

Additional observations from a re-analysis of the deposited data

How the results depend on the processing

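Of 98 alternatives run (6 of them, on the middle of the chromosomes, chosen after seeing the data), 70 left the value within its 95% interval or, for counts and lengths, within 1.5 times. With summits at most 100 bp apart, matched shares were 68.9% and 78.6% on chromosome 4 and 69.6% and 80.7% on chromosome 6. With a −log10 q of at least 10, the replicate 2 share on chromosome 6 was 89.3%, median folds were 8.82 and 9.16 on chromosome 4 and 9.17 and 9.88 on chromosome 6, summits within 2 kb numbered 38 and 52, and the longest stretch of chromosome 4 was 3.11 Mb, as with shared regions alone (3.11 Mb). Outer parts of 10% held 54.0% and 35.1% of regions and outer parts of 30% held 94.6% and 85.3%, on chromosomes 4 and 6 in turn. The outer share was higher on chromosome 4 under each of these settings. A fold limit of 20 gave 42 and 81 regions, and neighbours within 5 kb numbered 155 and 217. Leaving out 1 replicate gave a longest stretch on chromosome 4 of 2.31 to 2.52 Mb, median folds of 5.82 and 6.71 on chromosome 4 and of 5.91 and 6.71 on chromosome 6, and summits within 2 kb of 109 to 131 on chromosome 4 and 140 to 189 on chromosome 6. Stricter lists hold fewer, stronger peaks by construction; other causes were not tested. No paired analysis was possible because peak lists were used for ChIP alone. Summit pileups of 13 to 328 fragments limit the precision of single folds.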

Other observations

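Peaks found in 1 list only lay mostly in the outer parts of their chromosome, as the shared regions did. On chromosome 4, 248 replicate 1 peaks and 122 replicate 2 peaks had no partner. Of these, 82.7% and 83.6% lay in the outer parts of the chromosome. That was somewhat below the 86.9% of its shared regions (interval 84.3% to 89.1%). On chromosome 6, 334 and 145 peaks had none. The outer parts held 65.6% of those from replicate 1 and 87 of the 145 from replicate 2, against 63.6% of shared regions. Unmatched peaks were weak on both chromosomes. Their median folds were 4.30 in replicate 1 and 4.62 in replicate 2 on chromosome 4, and 4.30 and 4.65 on chromosome 6. The strongest were a replicate 1 peak on chromosome 6 from 45732443 to 45732854 (fold 8.77) and a replicate 2 peak on chromosome 6 from 8106202 to 8106721 (fold 8.52). A peak missing from a list is no measurement of 0 at that place.

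One unmatched replicate 2 peak on chromosome 6, from 23309106 to 23309578 in the thinly bound middle, had a summit pileup of 220 fragments but a fold of only 2.07. The regions whose folds differed most between the lists differed in both pileup and background, where the median pileup ratio of replicate 1 over replicate 2 was 1.24 on chromosome 4 and 1.26 on chromosome 6. On chromosome 4 from 4204587 to 4204999 the folds were 3.57 and 9.79, the pileups 32 and 39, and the backgrounds 8.23 and 3.08 fragments. On chromosome 6 from 44539522 to 44539846 the folds were 3.85 and 10.9, the pileups 30 and 40, and the backgrounds 7.06 and 2.74 fragments. In the other direction, on chromosome 4 from 46918503 to 46918916 the folds were 11.0 and 4.74, the pileups 53 and 31, and the backgrounds 3.91 and 5.75 fragments. The region with the highest replicate 1 fold on chromosome 6, from 16966280 to 16967142, had folds of 53.7 and 33.7 and pileups of 271 and 185. All were chosen with their values known.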
